A study of Mus musculus with 4 samples.

Results

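Ion channels and their close relatives set the membrane voltage of a cell and the entry of calcium, sodium, potassium and chloride. The genes described here are the voltage-gated, inwardly rectifying, K2P and calcium-activated potassium channels with their auxiliary subunits (names starting with Kcn), the voltage-gated calcium channels (Cacn), the voltage-gated sodium channels (Scn), the TRPC, TRPM and TRPV cation channels, and the ClC chloride channels and exchangers (Clcn). The rule that picked them used gene names only and no values, but it was set with earlier results of these data known. They make up 165 of the 29286 gene rows of the authors' table (164 distinct names, since Kcnab1 has 2 rows). The names also brought in 3 genes that encode no channel or channel subunit (Trpc4ap, Kcnrg and the long noncoding RNA Kcnq1ot1). In all, 1 gene of the TRP family was not analysed here.

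The cells were conditionally immortalised mouse podocytes, a line of the epithelial cells that wrap the glomerular capillaries of the kidney, differentiated for 12 days. A lipid reagent carried in 50 nM of a mimic of the microRNA miR-93 in one group, and of a nontargeting control (NT) mimic in the other, and poly-A RNA was taken 48 h later and sequenced from 2 libraries per group. The stated aim of the series was to find the targets of miR-93 in podocytes. The table holds 1 value per gene and group, the FPKM (fragments scaled by transcript length and by the number of mapped fragments), pooled over the libraries. The depth of each library is therefore unknown, the spread between replicates cannot be seen and no difference described here was tested. All values are the authors' pooled FPKM, and where a pair is given without names the miR-93 mimic comes first and the log2 ratio follows in brackets. The groups are called q1 and q2 in the table. Condition q1 was read as the miR-93 mimic, since a panel of the study prints the values of the gene Rps6ka4 under group names. All directions given here depend on that reading.

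In podocytes, calcium entry through TRP channels acts on the actin skeleton of the foot processes, and altered TRP channel activity is known to accompany glomerular disease. Potassium channels oppose depolarisation and hold the driving force for calcium. ClC proteins of the endosomes and lysosomes exchange chloride for protons. A microRNA lowers the mRNAs, or the translation, of genes whose 3′ UTR pairs with its seed, the bases close to its 5′ end.

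The mature sequence of miR-93-5p and the matches to its seed in the 3′ UTRs of the channel genes are shown first, because the mimic carries this seed. The miRNA is from RefSeq (build GRCm38.p6, chromosome 5, 138165574 to 138165596, minus strand), with its seed, bases 2 to 8, in capitals. Of the mature mouse miRNAs in the RefSeq table, 7 entries carry this seed, miR-93-5p included.
miR-93-5p: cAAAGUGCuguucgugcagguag

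In mRNA letters the searched words were GCACTTTA (8mer), GCACTTT (7mer-m8), CACTTTA (7mer-A1) and CACTTT (6mer), on the mRNA strand only, with a gene placed by its best word. The words overlap, since each longer one holds the 6mer. Among the longest 3′ UTRs (GENCODE M21, build GRCm38) of the 10091 named genes that had a 3′ UTR and averaged an FPKM of 1 or more over the groups, 4.63% held the 8mer, 15.1% GCACTTT, 13.8% CACTTTA and 42.2% the 6mer. Of the 30 channel genes at that level, all had a 3′ UTR and 6 held a match of 7 or 8 bases. The best sites are given with 12 bases before and 6 after, the match in capitals. Clcn7 (chromosome 17, 25161636 to 25161643, plus strand) and Kcnk10 (chromosome 12, 98432034 to 98432041, minus strand) held an 8mer.
Clcn7, 8mer: caagtgcagatgGCACTTTAaacagt
Kcnk10, 8mer: aagcactcctttGCACTTTActcgat

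A 7mer-m8 was the best word in Cacna2d1, Clcn5 and Scn2a1 (annotated as Scn2a). Cacna2d1 held the word at 2 places (chromosome 5, 16371039 to 16371045 and 16373350 to 16373356, plus strand) and a 7mer-A1 between them. The Clcn5 site lay on the minus strand of chromosome X, from 7154014 to 7154020, and the Scn2a1 site on the plus strand of chromosome 2, from 65766540 to 65766546.
Cacna2d1, first 7mer-m8: tttcaacctgctGCACTTTtaccaa
Cacna2d1, second 7mer-m8: atgtagctcagtGCACTTTgtcacg
Clcn5, 7mer-m8: aatgaatggaaaGCACTTTtgacaa
Scn2a1, 7mer-m8: tttctgttcccgGCACTTTttaatt

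Kcnab1 held a 7mer-A1 (chromosome 3, 65377908 to 65377914, plus strand). It is the only one of the channel genes with a match of 7 or 8 bases, at a mean FPKM of at least 1, that also lay past the fold used below.
Kcnab1, 7mer-A1: caagttctccatCACTTTAagattt

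Most channel genes were low or absent in these cells. A mean FPKM of at least 1 over the groups was reached by 30 of the 165 (18.2%), against 42.9% of the 25327 rows with a single gene name. A further 28 lay between 0.1 and 1, and 107 lay under 0.1, none of them above an FPKM of 0.110 in either group. Of these 107, 24 were listed at 0 in both groups, 22 only with the NT mimic and 3 only with the miR-93 mimic. The voltage-gated potassium channels, the family with the most members, had 1 of 40 at a mean FPKM of at least 1, whereas the ClC family had 5 of 9. The 30 expressed channel genes were themselves mostly low, with 11 above 10.8, the median of the mean FPKM of all named genes past the same floor.

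Across the 30 channel genes at a mean FPKM of at least 1, the levels of the groups lay close together for most, and 7 lay apart. A ratio is given as the log2 of the FPKM plus 0.1 with the miR-93 mimic over that with the NT mimic, a scale that understates differences of low genes. A gene is said to lie past the fold when its log2 ratio reached 0.5 in either direction, which is 1.41-fold. By this rule 3 channel genes were lower with the miR-93 mimic (10% of 30) and 4 were higher (13.3%), beside 3.83% lower and 1.81% higher among all 10855 named genes at this level. Of these channel genes, Kcnk12, Kcnip3, Kcnj4 and Scn3b had an FPKM under 1 in the group where they were lower. They passed the floor on the mean only through the other group, so their calls are not independent of the floor. The same floor was applied to all named genes. The median log2 ratio was −0.07 for the channel genes and −0.09 for all named genes, so the middle of the set lay where that of all genes lay. The spread was wider: the middle 50% of the channel genes ran from −0.29 to 0.17, and that of all named genes from −0.20 to 0.03. Low genes vary more in this table, and the central 95% of all named genes ran from −0.69 to 1.05 at a mean FPKM of 1 to 3 and from −0.55 to 0.28 at 10 or more. Of the 7 past the fold, 5 had a mean FPKM of 1 to 3. At that level 2 of 13 channel genes were lower (15.4%) and 3 were higher (23.1%), beside 5.55% and 6.65% of all named genes.

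**Figure D1:**
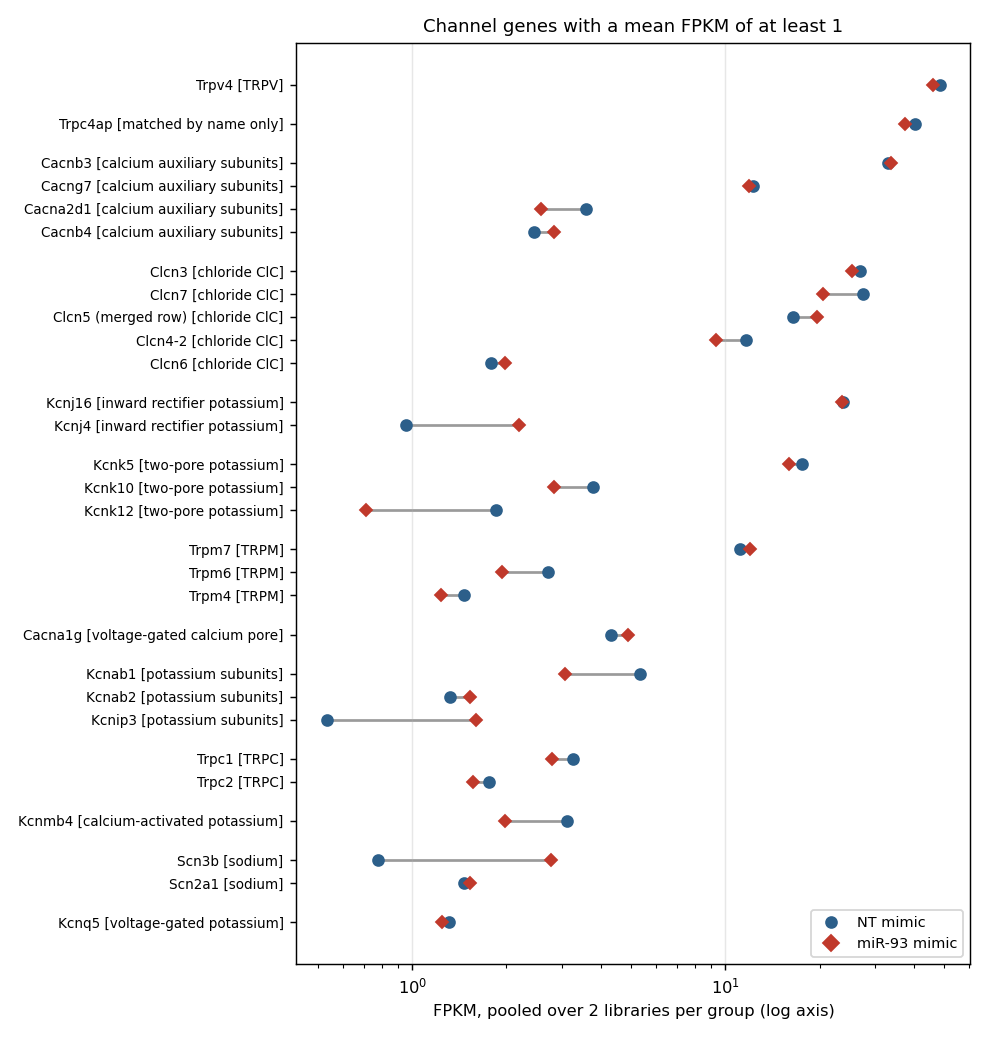
FPKM (log axis, 1 pooled value per group) of 29 channel genes with a mean of at least 1, by family, with the NT mimic (circles) and the miR-93 mimic (diamonds) joined by a line. Trpv4 was the highest at 46.0 and 48.4 with nearly touching points, and the longest lines belong to Scn3b, Kcnip3, Kcnk12 and Kcnj4.

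Kcnk12 encodes a K2P channel subunit of the THIK group. Its level was 0.711 in miR-93 mimic cells against 1.85 in NT mimic cells, a log2 ratio of −1.27 or 2.41-fold lower (mm9, chromosome 17, 88142438 to 88197426). This was the lowest ratio among the 30, and its annotated 3′ UTR of 139 bases held no miR-93 word. The other K2P channels at this level lay within the fold. Kcnk5, an acid-sensitive channel known from kidney epithelium, had 16.0 in miR-93 mimic cells against 17.6 in NT mimic cells (log2 ratio −0.14). Kcnk10, a channel opened by stretch and lipids and the carrier of an 8mer, had 2.84 and 3.77 (−0.40). All 3 lay below 0, but only Kcnk12 lay past the fold.

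The auxiliary β subunits of potassium channels held both other genes that were lower. Kcnab1, a cytoplasmic β subunit that speeds inactivation of voltage-gated potassium channels, stood at 3.08 in miR-93 mimic cells against 5.36 in NT mimic cells, a log2 ratio of −0.78 or 1.71-fold lower (mm9, chromosome 3, 64913010 to 65182141). A second row of the table carries the same symbol and the same coordinates with 0.584 and 0.669 (−0.17), so how the authors' assembly divided the reads between the rows is uncertain. The rows summed gave 3.67 and 6.03 (−0.70), still past the fold; this sum was chosen after seeing the data. Kcnmb4, the β subunit of large-conductance calcium-activated (BK) channels that is known mainly from brain, had 1.99 and 3.13, a log2 ratio of −0.63 or 1.55-fold lower. The pore subunits these proteins attach to were close to the lower end of the table. Kcnma1, the BK pore, had 0.00919 in miR-93 mimic cells against 0.00841 in NT mimic cells, and no member of the Kcna subfamily reached an FPKM of 0.1. The other cytoplasmic β subunits lay on the other side, with Kcnab2 at 1.53 and 1.32 (0.20) and Kcnab3 at 0.706 and 0.527 (0.36), neither past the fold.

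Kcnip3 encodes a calcium-binding protein that attaches to Kv4 potassium channels and is also known as the transcriptional repressor DREAM. It had 1.60 in miR-93 mimic cells against 0.534 in NT mimic cells, a log2 ratio of 1.42 or 2.68-fold higher (mm9, chromosome 2, 127282233 to 127347106). Its relative Kcnip2 had 0.270 and 0.123 (0.73), and Kcnip1 stood at −0.17. Kcnd1, a pore subunit to which these proteins attach, had 0.720 and 0.846 (−0.21). The only voltage-gated potassium pore at a mean FPKM of at least 1 was Kcnq5, of the KCNQ group that carries slow, muscarine-sensitive currents in neurons, at 1.25 and 1.31 (−0.07).

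The inward rectifiers let potassium into the cell more easily than out and stabilise the resting voltage. Kcnj4 (Kir2.3) stood at 2.19 in miR-93 mimic cells against 0.955 in NT mimic cells, a log2 ratio of 1.12 or 2.17-fold higher (mm9, chromosome 15, 79314143 to 79335671). Kcnj16 (Kir5.1), which pairs with other Kir subunits in kidney tubules, was the highest of the family and the highest potassium channel gene, at 23.5 and 23.8 (−0.02), so its levels were nearly equal. Kcnj2, close to Kcnj4 in sequence and function, was low at 0.341 and 0.233 (0.41) and lay within the fold.

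Sodium channels are built from a pore subunit and auxiliary β subunits, single-span proteins that also act in cell adhesion. The β subunit Scn3b stood at 2.78 in miR-93 mimic cells against 0.775 in NT mimic cells, a log2 ratio of 1.72 or 3.30-fold higher, the highest ratio among the 30 (mm9, chromosome 9, 40076800 to 40099203). The pore-forming Scn2a1, a channel of neurons, had 1.53 and 1.47 (0.05). Among low members Scn4b, also a β subunit, had 0.189 and 0.0249 (1.21), and Scn4a, the skeletal muscle pore, had 0.248 and 0.166 (0.39). The β subunit Scn2b had 0.00441 in the miR-93 mimic cells and was listed at 0 with the NT mimic.

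Calcium channels held no gene past the fold at a mean FPKM of at least 1. Cacna1g, a low-voltage-activated (T-type) pore, had 4.91 in miR-93 mimic cells against 4.31 in NT mimic cells (0.18). Of the β subunits that bring the pore to the membrane, Cacnb3 had 33.8 and 33.0 (0.03) and Cacnb4 2.84 and 2.45 (0.21); the Cacnb4 row overlaps another row past the floor, Gm13540, and without strand their reads cannot be told apart. Cacng7, of the γ family that is best known for trafficking glutamate receptors, had 11.9 and 12.3 (−0.04). Cacna2d1, the α2δ subunit bound by gabapentin, held 3 matches to the miR-93 words and had 2.58 and 3.60 (−0.46), just inside the fold. Among the low ones Cacna1a, a pore of presynaptic terminals, had 0.546 and 0.440 (0.26), and Cacna1h, a T-type pore, had 0.211 and 0.139 (0.38). Cacng1, a subunit of the skeletal muscle channel, had the highest ratio of all channel genes averaging an FPKM of 0.1 or more, 0.392 against 0.0191 (2.05).

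No TRP channel lay past the fold at a mean FPKM of at least 1. Trpv4, a calcium-permeable channel opened by cell swelling and warmth, was the most abundant of all channel genes at 46.0 in miR-93 mimic cells against 48.4 in NT mimic cells (−0.07). Trpm7, a channel joined to a kinase that carries magnesium and calcium, had 12.0 and 11.2 (0.10). Trpm6, its relative that takes up magnesium in the kidney and gut, had 1.93 and 2.71 (−0.47), just inside the fold, and Trpm4, a calcium-activated channel for monovalent cations, had 1.24 and 1.46 (−0.22). Trpc1 had 2.79 and 3.27 (−0.22), and Trpc2, a channel of the mouse vomeronasal organ, 1.56 and 1.76 (−0.16). Trpc4, Trpc5 and Trpc7 each lay under an FPKM of 0.01 in both groups. Among low TRP genes, Trpv2 had 0.413 and 0.0742 (1.56), past the fold, and Trpv1, the capsaicin receptor, had 0.0376 and 0.00863. Trpc4ap, an adaptor that binds TRPC channels and takes part in protein ubiquitination, had 37.4 and 40.3 (−0.11).

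The ClC family had the largest share of members at a mean FPKM of 1 or more, and none of its members lay past the fold. Clcn7, the chloride-proton exchanger of lysosomes, came nearest with 20.4 in miR-93 mimic cells against 27.5 in NT mimic cells (−0.42), and its 3′ UTR held an 8mer and a 7mer-m8. Clcn5, the endosomal exchanger mutated in Dent disease, had 19.6 and 16.4 (0.25) and held a 7mer-m8; its row is merged with a second gene, LOC100504671. Clcn3, another endosomal exchanger, had 25.3 and 26.9 (−0.09). Clcn4-2 had 9.30 and 11.6 (−0.32) and Clcn6, a late endosomal exchanger, 1.98 and 1.79 (0.14). Clcn2, a chloride channel of the plasma membrane, had 1.01 and 0.907 (0.14), just under the floor on the mean.

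The members nearest to the fold show where it divides a continuous range. Just past it on the lower side lay Kcnmb4 at −0.63, and just within it lay Trpm6 at −0.47, Cacna2d1 at −0.46, Clcn7 at −0.42 and Kcnk10 at −0.40. Of those 4, 3 carry an 8mer or a 7mer-m8, and Trpm6 carries none. The next member, Clcn4-2 at −0.32, held a 6mer only. Among all named genes with a 3′ UTR at this level, 15.1% held GCACTTT, the word within every 8mer and 7mer-m8. This range was picked after the values were seen, so the 3 of 4 support no statement about the sites.

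**Figure D2:**
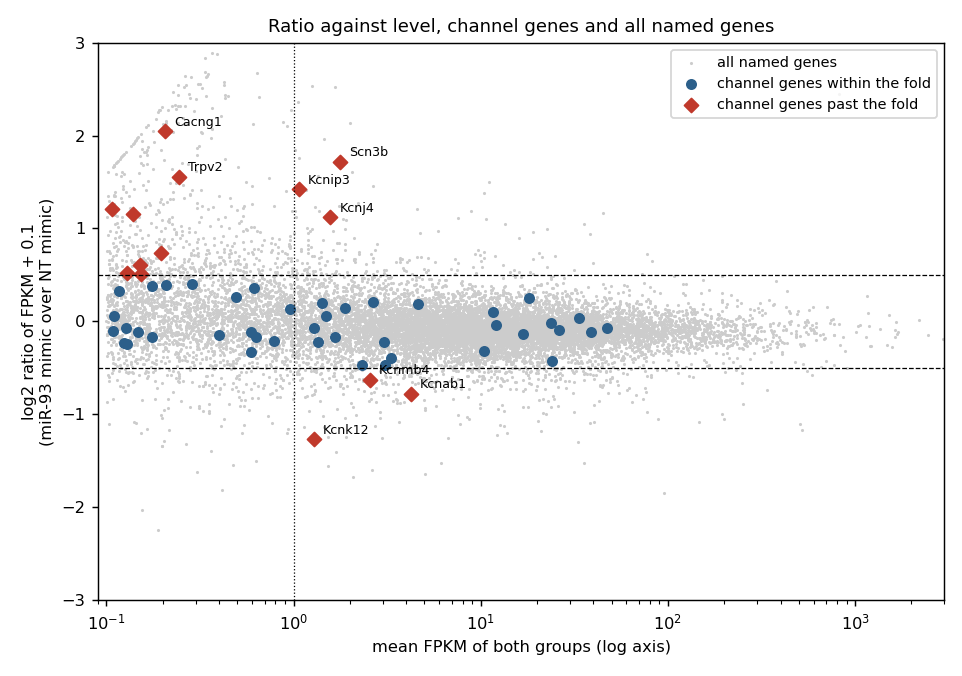
Log2 ratio of FPKM plus 0.1 (miR-93 mimic over NT mimic) against mean FPKM (log axis) for named genes with a mean of at least 0.1 (grey; 62 lie outside the vertical axis) and the channel genes reported here within (circles) and past the fold (diamonds, some of them labelled). Dashed lines mark log2 ratios of 0.5 in either direction and the dotted line a mean FPKM of 1; diamonds above 1 lie on both sides, those below 1 only on the upper side.

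The genes were also grouped by subunit role, after the values were seen. At a mean FPKM of at least 1, 5 of the 10 auxiliary subunits lay past the fold (2 lower, Kcnab1 and Kcnmb4, and 3 higher, Scn3b and Kcnip3 among them), and of the 19 pore-forming or transporter genes 2 did (Kcnk12 lower, Kcnj4 higher). Of all named genes at this level 3.83% were lower and 1.81% higher, and at a mean FPKM of 1 to 3 these shares were 5.55% and 6.65%. The difference between the roles was not tested, and since the grouping followed from the values it supports no statement about them.

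The share of genes with a miR-93 word was close to that of all genes. A match of 7 or 8 bases was held by 6 of the 30 (20%), against 22.5% of all named genes. The median log2 ratio of these 6 was −0.41, and that of the 24 without was −0.06. The value depends on the settings: the median with a site was −0.0852 over 2 genes with a floor of 5 on mean FPKM, 0.0320 over 35 genes with no floor, and −0.60 over 2 genes with the shortest 3′ UTR. Most of the genes added without a floor had a mean FPKM under 0.1, where the added 0.1 pulls a ratio towards 0. For all named genes the medians were −0.14 with such a site and −0.08 without. The 6 were not alike: Kcnab1, Cacna2d1, Clcn7 and Kcnk10 lay from −0.78 to −0.40, and Scn2a1 and Clcn5 lay at 0.05 and 0.25. Of all 467 named genes with an 8mer, 23.6% were lower past the fold, with a median of −0.26. The 2 channel genes with an 8mer, Clcn7 at −0.42 and Kcnk10 at −0.40, lay below that median but within the fold. These are too few genes to compare with that share. Of the 3 channel genes that were lower, Kcnk12 and Kcnmb4 held no word of any length in their annotated 3′ UTR. Those 3′ UTRs are short, at 139 and 377 bases, beside a median of 1207 bases for all named genes with a 3′ UTR. None of the 4 higher genes held a match of 7 or 8 bases, and Scn3b held a 6mer.

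**Figure D3:**
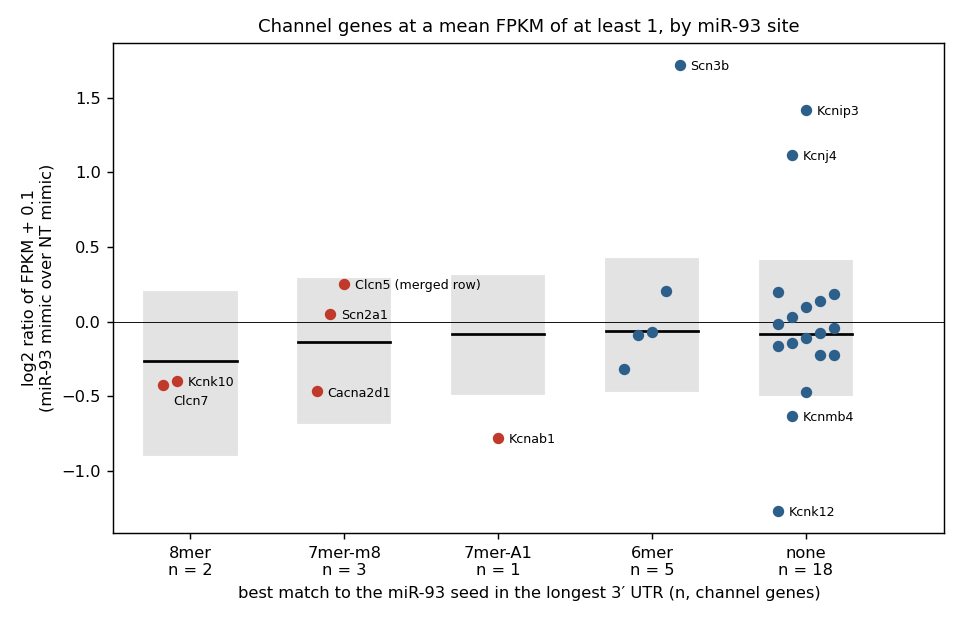
Log2 ratio of FPKM plus 0.1 (miR-93 mimic over NT mimic) of 29 channel genes averaging an FPKM of 1 or more (points), by the best miR-93 word in the longest 3′ UTR, over the median (line) and the central 95% (grey) of all named genes of that class. The points past −0.5 are Kcnab1 with a 7mer-A1 and Kcnmb4 and Kcnk12 with no word, and the points past 0.5 have a 6mer or none.

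Among the 28 channel genes with a mean FPKM of 0.1 to 1, none was lower past the fold and 9 were higher (32.1%). All named genes at this level were also more often higher than lower, with 19.3% higher and 5.73% lower. Among the 9 were Cacng1, Trpv2, Scn4b, Kcne1l, Kcnip2, Kcnj15, Trpm1 and Kcnn3. Of these, Cacng1, Trpv2, Scn4b, Kcne1l, Kcnj15 and Trpm1 had an FPKM under 0.1 with the NT mimic. They reached a mean of 0.1 only through the miR-93 mimic group, so their calls are not independent of that limit. The same limits were applied to all named genes. Kcne1l, a single-span potassium channel subunit, had 0.230 in miR-93 mimic cells against 0.0479 in NT mimic cells (1.16). Kcnj15, an inward rectifier, had 0.203 and 0.0990 (0.61), Trpm1, a channel of the retina and of pigment cells, 0.169 and 0.0875 (0.52), and Kcnn3, a small-conductance calcium-activated channel, 0.198 and 0.109 (0.51). Kcnk2, a stretch-sensitive K2P channel, lay at the other end with 0.517 and 0.672 (−0.32). Of the 28, 19 had enough reads by the authors' rule to be tested and the rest did not, and values this low rest on few reads, with the number unknown. The median log2 ratio was 0.29 for these channel genes and 0.10 for all named genes.

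**Figure D4:**
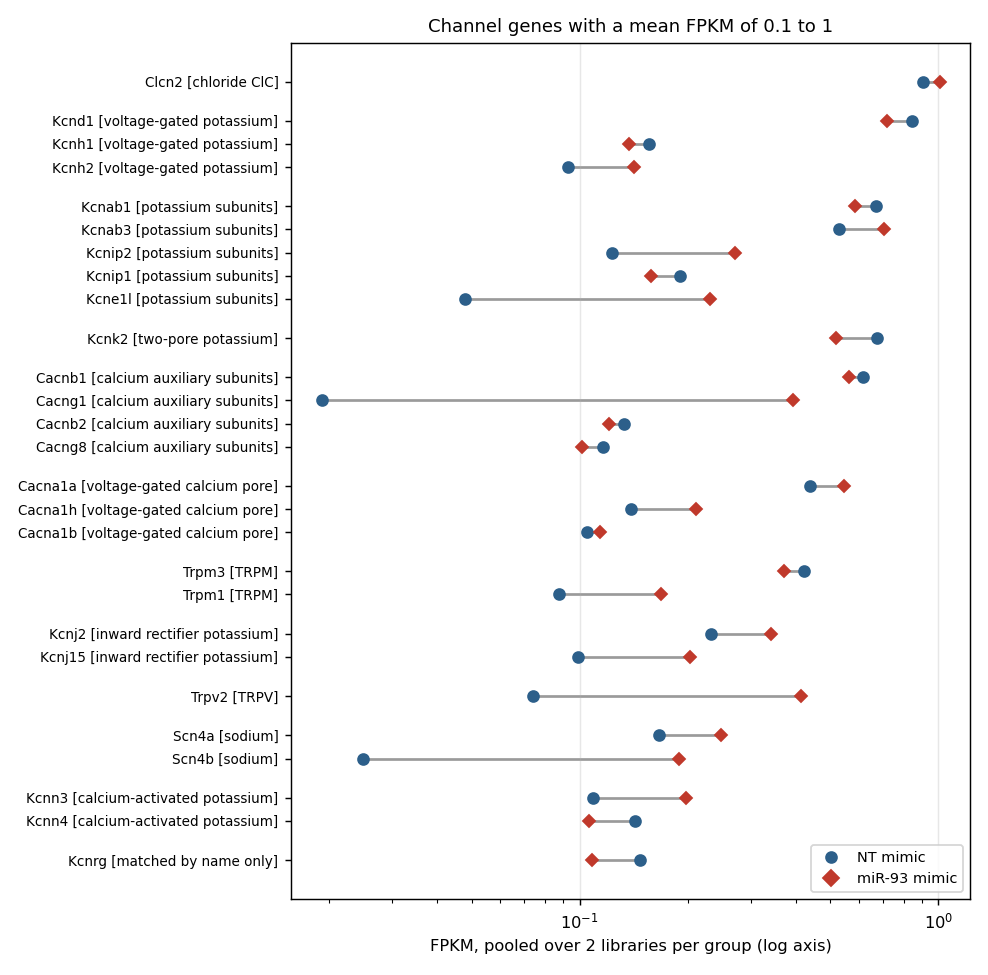
FPKM (log axis, 1 pooled value per group) of 27 channel gene rows with a mean of 0.1 to 1, by family, with the NT mimic (circles) and the miR-93 mimic (diamonds). The long lines of Cacng1, Trpv2, Scn4b and Kcne1l all run towards the miR-93 mimic, the group through which these genes reached a mean of 0.1. Kcnab1 here is the second, lower row of that gene.

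Other genes of ion transport and calcium signalling were taken from a list by function (67 genes: store-operated entry, intracellular release channels, pumps and exchangers, polycystins, mechanosensitive, purinergic, volume-regulated and epithelial sodium channels, and the calmodulin, calcineurin and NFAT pathway). Of the 44 rows past the floor of 1, 6 (13.6%) were lower past the fold, beside 3.83% of all named genes, none was higher, and the median log2 ratio was −0.14. P2rx4, an ATP-gated cation channel, had 16.3 in miR-93 mimic cells against 30.9 in NT mimic cells (−0.92). Pkd1 and Pkd2, the polycystins mutated in polycystic kidney disease, had 5.87 and 9.82 (−0.73) and 21.5 and 31.7 (−0.56). These 3 genes each held an 8mer, as did Ano6 (−0.30) and Ppp3r1 (−0.21), which lay within the fold. In all, 15 of the 44 rows (34.1%, against 22.5% of all named genes) held a match of 7 or 8 bases, and 4 of those 15 were lower past the fold. Among all named genes at this level, 8.75% of those with such a match and 23.6% of those with an 8mer were lower past the fold. The differences from these shares were not tested. Since the list was set with earlier results of these data known, they are a description only. Slc8a1, a sodium-calcium exchanger, had 4.65 and 7.80 (−0.74) and held a 7mer-A1. Lrrc8c, a subunit of the volume-regulated anion channel, had 7.73 and 11.1 (−0.52) and held a 6mer. Itpr3, a calcium release channel of the endoplasmic reticulum, had 7.99 and 11.4 (−0.51) and held no word. The store-operated entry genes Orai1, Orai2, Orai3, Stim1 and Stim2 all lay within the fold, as did the mechanosensitive channel Piezo1 (listed as Fam38a), which at 131 and 144 (−0.14) was above every member of the channel families.

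The cells carried part of the podocyte programme. Of 12 podocyte markers 7 had a mean FPKM of at least 1, with Synpo at 158 in both groups and Actn4 at 219 and 218, whereas Nphs1 (nephrin) had 0.164 in miR-93 mimic cells against 0.0387 in NT mimic cells, and Tcf21 was listed at 0 in both groups. The summed FPKM of the 12 was 456 and 469. None of 4 endothelial markers reached an FPKM of 1, 2 of 4 mesangial or fibroblast markers did (summed 1281 and 1061, nearly all Acta2), 1 of the tubular markers did (Lrp2, 31.7 and 47.5) and 1 of 2 leukocyte markers did (Cd68, 5.23 and 3.81). Among these markers at a mean FPKM of at least 1, Wt1 (0.51) and Lrp2 (−0.58) lay past the fold. The part of any other cell type in the channel values was not tested, and fewer cells of a type and less RNA per cell cannot be told apart in pooled RNA.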

How the data were processed

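The authors checked and trimmed the reads (FastQC, Trimmomatic), aligned them to mm9 with TopHat2 2.0.4, and assembled and quantified genes with Cufflinks and Cuffdiff, as the submitters' processing notes and the methods state. Versions of the other tools were not given there. The deposited FPKM values are pooled by the authors over the libraries of each group. Columns of log2 fold changes, test statistics, p-values and q-values, and 4 shorter sheets with selected ratios and −log10 p-values, hold the authors' own comparisons and were not used; 0 other per-sample columns were present. The status column was read only to see which rows had enough reads. Rows without a name (3650), with several genes (287, apart from the Clcn5 row) or with a date for a name (22) were left out of the background of all named genes.

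Computed here (Python 3.11.15, numpy 2.4.6, pandas 2.3.3) were the log2 ratio of FPKM plus 0.1, counts past 0.5 at a mean FPKM of at least 1, and seed matches in the longest 3′ UTR, if 30 bases or more (GENCODE M21, matched by symbol for 163 of 165 rows). The counting and the site search were checked on simulated data with planted ratios and sites. That check added nothing to the FPKM and planted no ratio near 0.5. Genome positions of genes are as in the mm9 files, those of sites are GRCm38, and the builds were not mixed. Named were all channel genes past the fold or with an 8mer or 7mer-m8 at a mean of at least 1, the 3 highest of each family, and the 5 low ones with the largest ratios among those with an FPKM of at least 0.5; others named were chosen after their values were seen. The values of a few genes that the rule takes in are not reported here, although they stay in the counts. The members and lists were chosen with earlier results of these data known. With pooled values only, no test, SD or confidence interval was possible.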

Additional observations from a re-analysis of the deposited data

How the results depend on the processing

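No paired analysis was possible because the table gives 1 pooled value per group, and for the same reason no replicate could be left out. Without a floor on FPKM, 15 of 141 channel genes were higher and 3 lower (6.0% and 3.47% of all 19059 named genes), the median log2 ratio was 0.0492 (−0.02 for all named genes), 35 held a site of 7 or 8 bases and the median of those was 0.0320. Both channel medians rest mostly on genes so low that the added 0.1 pulls their ratios towards 0. With a floor of 5 on mean FPKM, 0 of 12 were lower and 1 was higher (3.38% and 0.690% of 7831 named genes), and 2 held a site, with a median of −0.0852. A fold of 1 on the log2 scale left 1 of 30 lower and 3 higher (0.470% and 0.580% of all named genes), and a fold of 0.25 gave 8 lower and 5 higher (17.5% and 6.08%). The shortest annotated 3′ UTR left 2 genes with a site, Clcn7 and Kcnab1, with a median of −0.60. A pseudocount of 1 brought Kcnmb4 to −0.47, inside the fold; the other 6 stayed past it. Centred on the median of all named genes, the same 7 genes lay past the fold and the median of the channel genes was 0.02, not −0.07. The ratios of those 7 genes kept their sign under the alternatives run for them; centring turns the sign of ratios between −0.09 and 0, such as that of Trpv4. Depth is unknown, so the limits of the low values cannot be stated as counts.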
